A study of Mus musculus with 6 samples.

Results

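The regions described here were promoters that carried probes from both ends of the array's length range. Probes on the autosomes were sorted by their position on the mouse genome build mm9 and joined into 1 region wherever their starts lay at most 500 bp apart. A region was taken as a mixed promoter when it held 6 to 19 probes, at least 2 of 45 bases (short probes) and at least 2 of 58 bases or more (long probes), with a mean length under 55 bases. Of the 25035 regions on the array, 3694 (14.8%) met this rule, which used positions and lengths and no measured signal. After probes marked as outliers were left out, 3675 of the 3694 still had at least 2 probes of each class and could be compared within the region, and the other 19 entered only the region, short probe or long probe means they still allowed.

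Adipose tissue was taken at 32 weeks of age from female C57BL/6J offspring, with 1 mouse per array and 3 mice in each group. The LC mice came from dams on a chromium restriction (low chromium) diet through gestation and lactation, and the CC mice from dams on the control diet. Mice of both groups ate the control diet after weaning, so that only the maternal diet differed by design. From each mouse, DNA recovered with an antibody to 5-methylcytidine (MeDIP DNA, labeled with Cy5) and unenriched input DNA (labeled with Cy3) were hybridized together on 1 promoter array.

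Methylation of cytosine at CpG sites of promoters is a stable mark that often goes with a silent gene, and MeDIP pulls down fragments roughly in proportion to the methylated CpG sites they carry. The input shows how well each probe captures DNA that was not selected, so that log2(MeDIP/input) is read as relative methylation. On arrays of this kind, long probes are commonly placed in AT-rich sequence and short probes in GC-rich sequence, to bring their melting temperatures together. A mixed promoter therefore usually spans sequence of both kinds, and the same stretch of chromatin is read by both kinds of probe. In DNA from whole tissue, a change in the share of a cell type and a change of methylation inside its cells cannot be told apart.

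The mixed promoters held 31326 of the 174638 promoter probes. Of these, 13297 (42.4%) were short, 9264 (29.6%) were long and 8765 lay between, while over the whole array 49.9% of the probes were short and 16.2% long. Most long probes, 7447, had the full length of 60 bases. A mixed promoter had a median of 8 probes, 3 of them short and 2 long, and a median length of 1676 bp. Neighboring probe starts lay a median of 209 bp apart. Both classes lay close together, with the middle of a short probe a median of 452 bp from the center of its region and that of a long probe 531 bp. Long probes were the outermost probe of their region somewhat more often (28.9% of long and 20.1% of short probes). In 1815 regions (49.1%) the short probes lay on one side and the long probes on the other, in 477 the short probes lay between long ones, in 452 the long probes lay between short ones, and in 950 the classes alternated more often. Chromosome 2 held the most mixed promoters (321), followed by chromosomes 3 (263) and 1 (257), and chromosome 19 the fewest (97).

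All values below are on the log2 scale of signals that the scanner software had background-subtracted and scaled, and the signals of each channel were centered on the median of their array. The difference of interest was taken inside each region and array, as the mean of its long probes minus the mean of its short probes. A constant scale factor of a whole array cancels in it. An additive background or a difference in spread between arrays does not cancel, and can act differently on dim long and bright short probes. The LC arrays were dimmer than the CC arrays in the input before scaling, with a median signal above background of 105.5, 169 and 126 intensity units against 240, 334 and 314. In the MeDIP channel the medians were 144, 130.5 and 118 for LC and 147, 142 and 218.5 for CC, where the last array (CC replicate 3) was scanned at 306 V against 279 V for the others. The LC arrays all lay at position 1 of their slide and the CC arrays at position 3, so that the group and the place on the slide cannot be told apart. What part the dimmer input of the LC arrays has in the results was not tested. The arrays of a replicate number shared their scan day. With 3 arrays a group, the number of arrays sets the precision of every value below.

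The signal fell steeply with probe length inside the mixed promoters, in both channels and on every array. In the CC mice the median over short probes was 0.61 in the input and 1.18 in the MeDIP channel, and that over probes of 60 bases was -1.68 and -3.83. The ratio fell with length as well, from 0.52 for short probes to -1.38 for probes of 60 bases. Of the 3675 regions, long probes lay below short probes on all 6 arrays in 3488 (94.9%) in the input, in 3605 (98.1%) in the MeDIP channel and in 2979 (81.1%) in the ratio. The opposite order on all 6 arrays was found in 89, 54 and 252 regions. A probe's brightness depends on its sequence as well as on its target, so that these level differences are not differences in methylation by themselves.

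**Figure D1:**
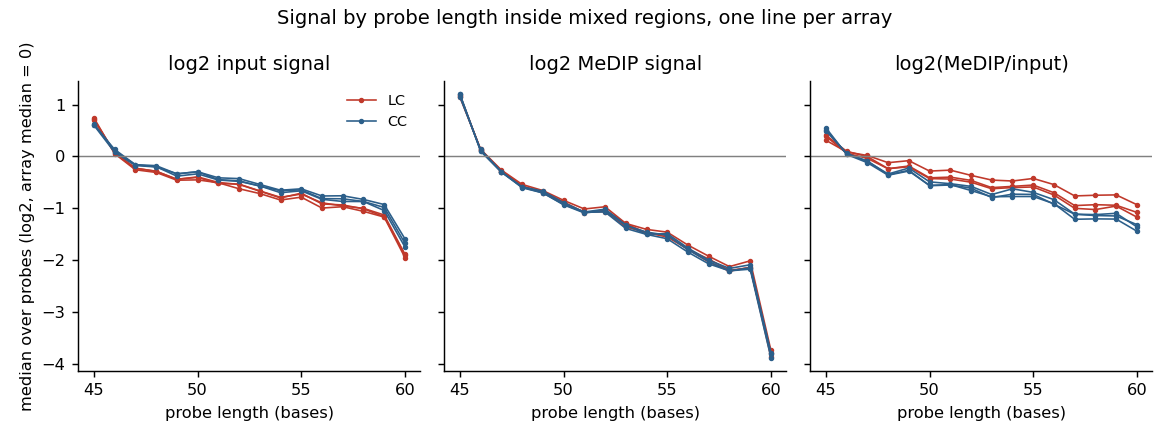
Median signal of the probes of each length (x axis, 45 to 60 bases) inside the mixed promoters, as log2 input signal, log2 MeDIP signal and log2(MeDIP/input), with the array median at 0 and 1 line for each of the 3 LC and 3 CC arrays. The MeDIP lines of all arrays run together from about 1.18 down to -3.83, while in the input the CC arrays lie below the LC arrays at 45 bases and above them from 47 bases on.

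Many long probes had little or no MeDIP signal. In the input, 96.6% of the short and 59.8% of the long probes were well above background on all 6 arrays, and in the MeDIP channel 92.2% and 28.5%. Conversely, 66.9% of the long probes rose well above background in the MeDIP channel on 0 of the 6 arrays, against 6.03% of the short probes, and their MeDIP values have only an upper bound. The share of long probes well above background in the input was 60.69%, 77.71% and 76.44% on the LC arrays and 89.83%, 88.13% and 91.82% on the CC arrays. Each LC array lay below each CC array. LC replicate 1 stood apart, with the lowest share of all.

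Whether short and long probes of 1 promoter showed the same difference between LC and CC mice was asked first in the input, which was not selected for methylation. The input signal of the long probes relative to the short probes was lower in LC. The median of long minus short over the 3675 regions was -2.57, -2.46 and -2.48 on the 3 LC arrays and -2.08, -2.23 and -2.15 on the 3 CC arrays, or -2.50 ± 0.06 (SD, n = 3) against -2.15 ± 0.07 (SD, n = 3). The groups did not overlap. Per region, the LC minus CC difference of this quantity had a median of -0.35, and the quartiles of the regions were -0.50 and -0.20. It was negative in 94.3% of the regions. With limma and Benjamini-Hochberg adjustment over the 4057 regions with 2 usable probes of each class, 1849 of the 3675 mixed promoters (50.3%) were lower in LC at an adjusted p under 0.05, where 49.2% of all regions fitted were called. Only 5 were higher, where 0.148% of those fitted were called. Since 3675 of the 4057 regions fitted were mixed promoters, both shares rest mostly on the same regions. Shares over all regions fitted were taken for the main values only. Unadjusted counts and counts under other settings, here and below, have no such share. They do not set the mixed promoters apart from other regions. The LC arrays all lay below the CC arrays in 2322 mixed promoters (63.2%, against 62.8% of those fitted), and all above in 14 (0.381%, against 0.394%). After normexp background correction of the raw signals, however, the median difference was 0.07 and the calls were 157 lower and 413 higher.

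Relative to the array median, both classes moved, in opposite directions. The direction of a single class depends on this zero point, unlike long minus short. Before centering, the median scaled input over short probes was 826.9, 860.8 and 826.6 on the LC and 808.4, 859.5 and 779.5 on the CC arrays. There the groups overlapped. For long probes it was 144, 160.2 and 152.9 against 194.6, 185.6 and 178.3, without overlap. After centering, the input signal of the short probes had a median over regions of 0.88, 0.82 and 0.83 on the LC arrays and 0.69, 0.69 and 0.71 on the CC arrays. For the long probes the medians were -1.75, -1.69 and -1.68 on the LC arrays and -1.42, -1.56 and -1.48 on the CC arrays. In these centered values neither class overlapped between the groups. The median LC minus CC difference per region was 0.12 for short probes, positive in 79.1% of the regions, and -0.23 for long probes, negative in 91.2%. The LC arrays all lay above the CC arrays for the short probes of 1716 mixed promoters (46.7%, against 53.8% of the 18628 regions with 2 or more short probes) and all below in 150 (4.08%, against 2.72%). For the long probes they lay all below in 1882 (51.2%, against 49.1% of the 7086 regions with 2 or more long probes) and all above in 30 (0.816%, against 1.04%). After normexp the long probes too were higher in LC, with a median difference of 0.16.

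In the MeDIP channel the groups were not separated in these values. Long minus short had a median of -3.82, -3.97 and -3.91 on the LC arrays and -3.94, -3.95 and -3.88 on the CC arrays, or -3.90 ± 0.08 (SD, n = 3) against -3.93 ± 0.04 (SD, n = 3). The groups overlapped, and LC replicate 1 was the highest of the 6. The median LC minus CC difference per region was 0.02, positive in 58.7% of the regions. After normexp it was 0.20, larger than that of the input, with 0 regions called by limma (0 lower, 1349 higher with an unadjusted p under 0.05). In the main values limma called 1 mixed promoter lower, where 0.0739% of those fitted were called, and 0 higher (56 lower, 182 higher with an unadjusted p under 0.05). The LC arrays lay all above the CC arrays in 204 regions (5.55%, against 5.72% of those fitted) and all below in 152 (4.14%, against 4.51%). Taken alone, the short probes lay all above in 162 regions (4.41%, against 3.66% of those fitted) and all below in 278 (7.56%, against 8.36%), and the long probes all above in 200 (5.44%, against 4.9%) and all below in 253 (6.88%, against 6.6%). Since most long probes were near background in this channel, the comparison was repeated, after the data were seen, with only probes well above background in both channels on all arrays. In the 420 mixed promoters that kept 2 probes of each class, the median difference was 0.06 in the MeDIP channel, -0.19 in the input and 0.25 in the ratio.

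**Figure D2:**
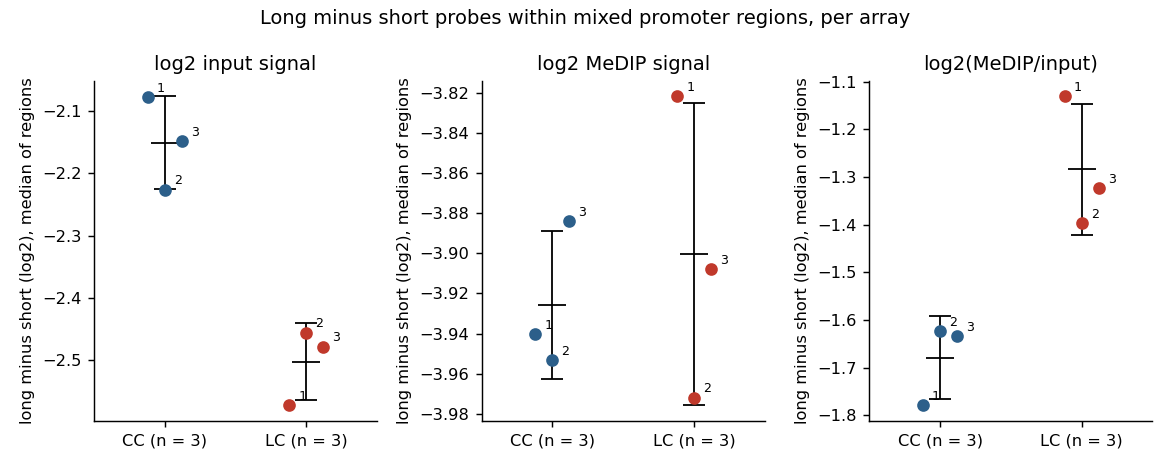
Median over the 3675 mixed promoters of the mean of the long probes minus the mean of the short probes (y axis, log2) on each array, for the input, the MeDIP channel and the ratio, with the replicate number beside each point and bars for the mean and SD of the 3 arrays of a group. The y axes differ in range: LC lies below CC in the input (-2.50 against -2.15), the groups overlap in MeDIP, and LC lies above CC in the ratio (-1.28 against -1.68), while after normexp the median differences per region are 0.07, 0.20 and 0.12.

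The ratio of long to short probes was higher in LC. Long minus short in log2(MeDIP/input) had a median of -1.13, -1.40 and -1.32 on the LC arrays and -1.78, -1.62 and -1.63 on the CC arrays, or -1.28 ± 0.14 (SD, n = 3) against -1.68 ± 0.09 (SD, n = 3). All LC arrays lay above all CC arrays. The median LC minus CC difference per region was 0.37, and it was positive in 94.3% of the regions. After normexp it was 0.12, with 369 regions called higher and 18 lower, and there it had the sign of the input difference. The LC arrays lay all above the CC arrays in 2190 mixed promoters (59.6%, against 58.8% of those fitted) and all below in 18 (0.49%, against 0.493%). Limma called 1560 mixed promoters (42.4%) higher in LC, where 41.2% of those fitted were called, and 1 lower, where 0.0246% were. Of the 1560 and 1 calls, 1470 (94.2%) were also called in the input, which are 79.3% of the input calls. In 1551 of the regions called in the ratio (99.4%), the difference was larger in the input than in the MeDIP channel. The input enters the ratio and these regions were selected on the ratio, so that these shares are a description and no separate support. After normexp the median difference of long minus short was 0.20 in the MeDIP channel and 0.07 in the input. Over all 3675 regions, the difference in the main values was larger in the input than in the MeDIP channel in 3416 (93.0%). The median absolute difference was 0.35 in the input and 0.05 in the MeDIP channel, in which most long probes were near background. Without CC replicate 1, limma called 0 regions in the ratio (8 lower, 1394 higher with an unadjusted p under 0.05) and 694 lower in the input. Without CC replicate 2 it called 842 higher in the ratio, and without CC replicate 3 it called 628 higher in the ratio and 954 lower in the input. With the values the authors processed themselves, the median difference was 0.05, with 399 regions higher and 98 lower.

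**Figure D3:**
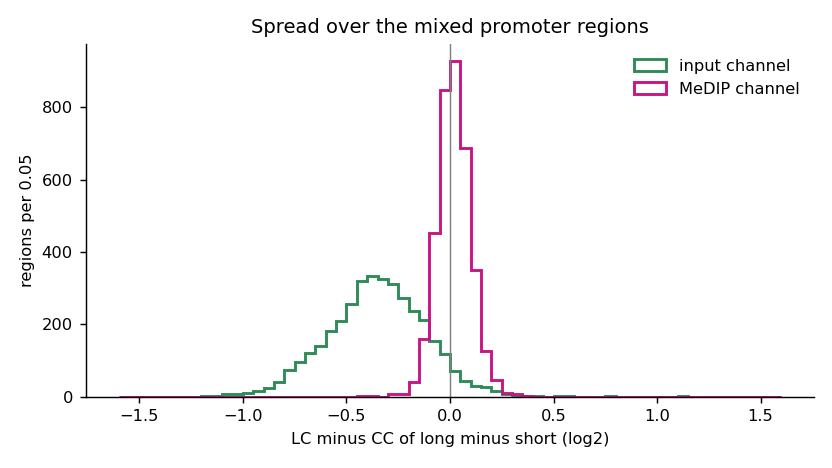
Number of mixed promoters (y axis, per 0.05 on the x axis) by the LC minus CC difference of long minus short probes (x axis, log2), for the input and the MeDIP channel, over 3675 regions. The MeDIP differences lie around 0 with a median of 0.02, and the input differences spread wider around a median of -0.35. After normexp the medians were 0.20 in the MeDIP channel and 0.07 in the input.

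Within the regions and relative to the array median, the ratio of short probes was lower and that of long probes higher in LC. Short probes had a median ratio of 0.23, 0.32 and 0.32 on the LC arrays and 0.45, 0.42 and 0.41 on the CC arrays. Long probes had -0.90, -1.06 and -1.02 on the LC arrays and -1.33, -1.21 and -1.23 on the CC arrays. Neither class overlapped between the groups, and the median differences per region were -0.11 and 0.26. They were -0.02 and 0.09 after normexp, and -0.02 and 0.03 with the authors' values. Per region, the LC arrays lay all below the CC arrays for the short probes of 1531 (41.7%, against 47.0% of those fitted) and all above in 274 (7.46%, against 4.9%). For the long probes they lay all above in 1972 (53.7%, against 51.3%) and all below in 25 (0.68%, against 0.734%). Averaged over the short probes, 1153 of 3692 mixed promoters (31.2%) were called lower in LC by limma, where 32.4% of the 18628 regions fitted were, and 105 (2.84%) higher, where 1.61% were. Without CC replicate 1 these were 530 and 19, and without CC replicate 2 they were 743 and 47. After normexp they were 638 and 336. Averaged over the long probes, limma called 0 of 3677 in either direction, as for all 7086 regions fitted (0.0%). With an unadjusted p under 0.05, 11 were lower and 1678 higher. The smallest adjusted p in limma was 0.0573, and without LC replicate 2 limma called 1017 higher and 5 lower. It called 450 higher and 15 lower after normexp, 149 and 72 with the authors' values, and 722 and 13 with probes well above background in the input. In 2500 regions (68.0%) the short probes were lower and the long probes higher in LC. In 946 (25.7%) both were higher, in 160 both were lower, and in 69 the short probes were higher and the long probes lower. These signs are relative to the array median and depend on where it lies. Their shares over all regions fitted were not taken. Across the regions the differences of the 2 classes had a Pearson's r of -0.026, a description over regions that share the same 6 arrays.

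Probes of intermediate length had intermediate differences, with the largest steps at both ends of the length range. Inside the mixed promoters, the median LC minus CC difference per probe in the input was 0.11 at 45 bases, -0.03 at 46, -0.10 at 50, -0.13 at 55, -0.19 at 58 and -0.25 at 60. In the MeDIP channel it lay between -0.02 and 0.02 at every length. In the ratio it was -0.09 at 45 bases, 0.07 at 46 and 0.28 at 60. Probes of the same length in the other autosomal regions gave close values, 0.12 at 45 and -0.24 at 60 bases in the input and -0.10 and 0.27 in the ratio. Removing each array's trend on probe length, which takes out such a difference by construction, left a median of -0.03 for long minus short in the input with 0 regions called by limma (509 lower, 324 higher with an unadjusted p under 0.05), and of -0.07 in the ratio.

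**Figure D4:**
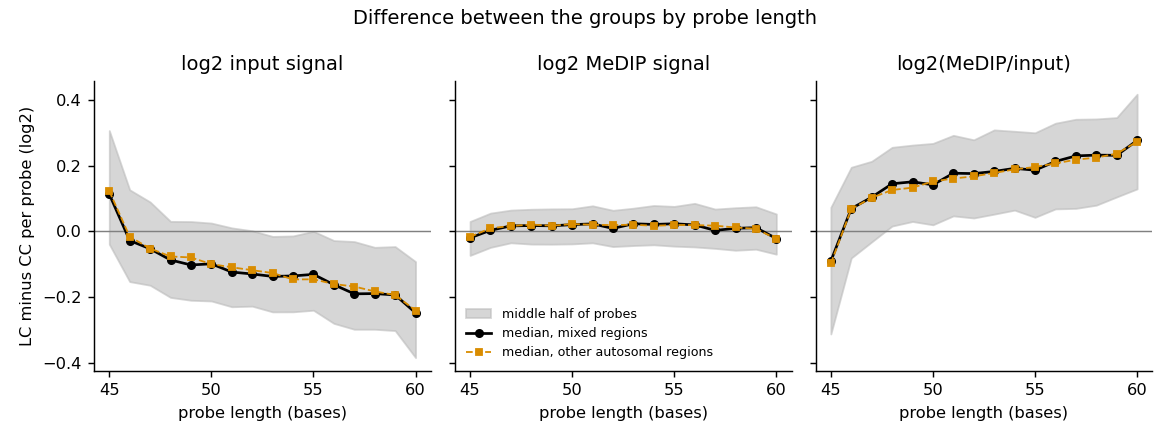
Median LC minus CC difference per probe (y axis, log2) at each probe length (x axis, bases) for the input, the MeDIP channel and the ratio, with the band from the lower to the upper quartile. Black points are probes in the mixed promoters and orange squares probes in all other autosomal regions, and both lines run from 0.11 or 0.12 at 45 bases to -0.25 or -0.24 at 60 bases in the input.

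Relative to the array median, promoters made of a single class gave the same signs as that class inside the mixed promoters. In 930 autosomal regions of at least 3 probes, all of 45 bases, the median difference per probe in the input was 0.15 (5652 probes), against 0.11 for the short probes of mixed promoters. In 77 regions with only probes of 58 bases or more it was -0.27 (337 probes), against -0.23 for the long probes of mixed promoters. The median input of these long-only regions was -2.17, -2.06 and -1.97 on the LC arrays and -1.81, -1.98 and -1.92 on the CC arrays. There LC replicate 3, at -1.97, lay above CC replicate 2, at -1.98, and the groups overlapped. In the MeDIP channel the differences were -0.02 and -0.03. None of these values was repeated after normexp, which turned the sign of the long probes in the input of the mixed promoters.

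Long probes are also dimmer than short ones. The values were therefore set side by side within classes of brightness, by the mean centered input over all arrays. The lowest and the highest class are open-ended, and brightness was not matched inside them. Below -1 the array medians of the input were -1.68 to -1.53 for short and -2.32 to -1.94 for long probes. Above 1 the short probes were the brighter ones as well. In these end classes the values can reflect brightness as well as length. Among probes of mixed promoters below -1, the median input difference was 0.03 for 1820 short and -0.27 for 6326 long probes. From -0.5 to 0 it was 0.03 for 1491 short and -0.17 for 713 long probes. Above 1 it was 0.22 for 5640 short and -0.07 for 371 long probes. In each of the 6 brightness classes used, the long probes had the lower value. Within a class of length the difference rose with brightness at most steps, and long and bright probes were few. With each array's trend on input brightness removed, an alternative chosen after the data were seen, the median of long minus short was -0.20 in the input and 0.21 in the ratio.

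Neighboring probes can share some of the DNA fragments they read, and they were compared as pairs. In 4107 pairs of a short and a long probe next to each other, from 2626 regions and with a median of 213 bp between their starts, the input of the long probe minus the short probe was lower in LC by a median difference of -0.28, and the difference was positive in 17.2% of the pairs. In the MeDIP channel it was -0.01 and positive in 47.2%. In the ratio it was 0.28 and positive in 82.6%. In the 729 pairs with starts at most 200 bp apart the values were -0.28 in the input and 0.29 in the ratio. The sign of a pair of the same class is set by the order along the chromosome alone, so that only sizes can be compared. The median absolute difference in the input was 0.31 in short and long pairs, 0.22 in 7140 short pairs and 0.21 in 2993 long pairs. Pairs within a region share probes and are not independent.

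The LC minus CC difference of the mean over all probes of a region varied with the share of its probes that were short. Limma called 97 of the 3694 mixed promoters (2.63%) lower in LC, where 8.86% of the 22569 regions fitted were called, and 439 (11.9%) higher, where 10.2% were. Among the 930 mixed promoters with under 30% short probes the median difference of the region mean was 0.14, with 203 (21.8%) called higher and 1 lower. It was 0.08 with 30% to under 40% short probes, 0.05 with 40% to under 50% and 0.02 with 50% to under 60%. Among the 464 with 60% or more it was -0.03, with 8 called higher and 48 (10.3%) lower. The share called over all regions fitted was not taken within these classes. Their counts therefore do not set the mixed promoters apart from other regions with a like share of short probes. The regions called lower had a median of 58.3% short probes and those called higher 33.3%, against 42.9% over all mixed promoters. Of the 96 regions called lower in which both classes were measured, 76 had long probes with a higher ratio in LC, and of the 439 called higher, 120 had short probes with a lower ratio. The direction turned with loess (140 lower, 106 higher), equal spread on every array (76 and 54), the authors' values (268 and 250), probes well above background in both channels (687 and 202), and with the trend on input brightness (190 and 173) or on probe length (83 and 31) removed. Limma called 0 mixed promoters in the region mean without CC replicate 1 (189 lower, 661 higher with an unadjusted p under 0.05). It also called 0 without CC replicate 3 (148 lower, 819 higher unadjusted) and with replicate numbers as blocks (231 lower, 992 higher unadjusted). It called 102 without CC replicate 2, 268 without LC replicate 1 and 337 without LC replicate 3.

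The separation of long and short probes was present on each scan day. Between the arrays of replicate 1, which shared a slide, the median LC minus CC difference of long minus short was -0.49 in the input, 0.10 in the MeDIP channel and 0.59 in the ratio. Between those of replicate 2, also on 1 slide, it was -0.24, -0.03 and 0.22. Between those of replicate 3, on separate slides, it was -0.32, -0.03 and 0.29. Replicate 1 thus held the largest difference in each channel. With the replicate number as a block, limma called 1694 regions lower and 4 higher in the input, 1399 higher and 3 lower in the ratio, and 3 lower and 12 higher in the MeDIP channel.

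Single promoters show how the values arise. Of the mixed promoters called in the ratio without overlap between the groups (1457 higher and 1 lower outside chromosome 18), the 5 with the largest difference and the only lower one are given, by position on mm9. They were selected by these values in the ratio, so that the ratio and the input that enters it are given as a description. The largest was chr4:45332987-45334559 with 8 probes, 2 short and 2 long. Its long minus short ratio was -1.11, -2.10 and -2.27 on the LC arrays and -3.13, -2.94 and -3.03 on the CC arrays. The arrays did not overlap, and LC replicate 1 stood farthest from CC. The difference was 1.21 (SE 0.24, limma adjusted p = 0.00795), with -1.12 in the input and 0.08 in the MeDIP channel, where its long probes were well above background on 0 arrays. Only 1 of its 2 long probes differed much, by 1.09 in the ratio and -1.06 in the input. The other differed by -0.07 and 0.05.

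The next, chr16:22008390-22009920, had 7 probes, 3 short and 2 long, and its short and long probes were well above background in both channels on all arrays. Its long minus short ratio was 0.15, -0.71 and -0.28 on the LC arrays and -1.54, -1.46 and -1.45 on the CC arrays. In the input it was -3.43, -2.77 and -3.10 on the LC arrays and -1.84, -1.93 and -2.04 on the CC arrays, and neither measure overlapped. In the MeDIP channel it was -3.28, -3.49 and -3.38 on the LC arrays and -3.38, -3.39 and -3.49 on the CC arrays, which overlapped. The difference was 1.20 in the ratio (SE 0.19, limma adjusted p = 0.00617), -1.17 in the input and 0.03 in the MeDIP channel (limma adjusted p = 0.975). Relative to the array median, both 60-base probes had a lower input in LC, by differences of -0.39 and -0.36. The 3 short probes had a higher one, by 0.65, 1.37 and 0.36. A probe of 48 bases, close to the short ones in length, was lower in LC by -0.43. In the mean over all its probes this promoter differed by -0.14 between the groups (limma adjusted p = 0.0799).

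At chr12:85290265-85292002 the difference was 1.19 in the ratio (SE 0.15, limma adjusted p = 0.00617), -1.03 in the input and 0.16 in the MeDIP channel. At chr6:116286848-116288530 it was 1.18 (SE 0.23, limma adjusted p = 0.00721), -1.07 and 0.10. At chr15:65617307-65618994 it was 1.17 (SE 0.16, limma adjusted p = 0.00617), -1.05 and 0.12. In the promoters on chromosomes 4, 12, 6 and 15 the long probes never rose well above background in the MeDIP channel, so that their MeDIP differences and ratios are limited by background. On chromosomes 4 and 6 no long probe was well above it on all arrays in the input either. None of the 5 was called in the mean over all probes, whose adjusted p was 0.0799 to 0.73 with limma.

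The only promoter called lower, chr14:51011198-51012745, had 8 probes, 2 short and 2 long. Its long minus short ratio was 1.11, 1.10 and 0.97 on the LC arrays and 1.65, 1.62 and 1.42 on the CC arrays, without overlap. In the input it was -4.56, -4.51 and -4.33 on the LC arrays and -5.02, -5.09 and -4.85 on the CC arrays, again without overlap. The difference was -0.50 in the ratio (SE 0.14, limma adjusted p = 0.0165), 0.52 in the input and 0.02 in the MeDIP channel. Its 2 long probes went in opposite directions, by -0.72 and 0.31 in the ratio and by 0.75 and -0.18 in the input. Neither long probe was well above background in the MeDIP channel on any array, and 1 of them was not in the input either, so that both levels are limited by background.

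**Figure D5:**
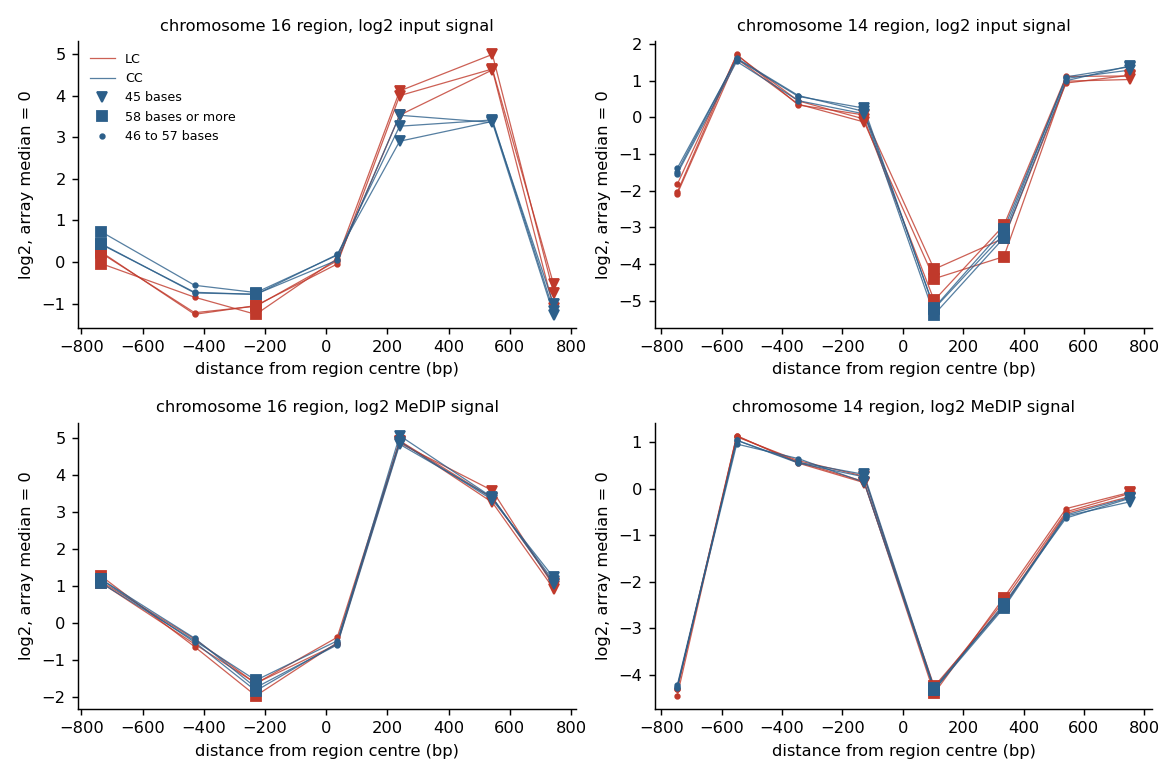
Signal of each probe (y axis, log2, array median at 0) by the distance of the probe from the center of its region (x axis, bp) in the chromosome 16 promoter (left) and the chromosome 14 promoter (right), input above and MeDIP below, with 1 line per array and symbols for the length class. In the chromosome 16 promoter the input lines of the groups part at the 45-base and 60-base probes (differences of up to 1.37) and also at the 48-base probe (-0.43). In both promoters the MeDIP lines of the 6 arrays lie on each other.

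Promoters at the ends of the level scale are given as a description. The largest long minus short ratio in CC was that of chr5:23605292-23606848, at 3.76, 3.99 and 3.85 on the CC arrays and 4.59, 3.79 and 3.79 on the LC arrays. Here the long probes had more MeDIP signal than the short ones, and the groups overlapped (difference 0.19, limma adjusted p = 0.422). The next in that order were chr1:12681424-12682582 and chr17:38059213-38060947, with differences of -0.19 and -0.30 (limma adjusted p = 0.286 and 0.318). The smallest ratio in CC was that of chr5:144089749-144091169, at -6.25, -6.07 and -6.05 on the CC arrays and -5.69, -5.90 and -5.71 on the LC arrays. Its groups did not overlap, with a difference of 0.36 (limma adjusted p = 0.0519). It was followed by chr9:106071960-106073594, with a difference of 0.46 (limma adjusted p = 0.0381), and chr2:17918075-17919526, with 0.07 (limma adjusted p = 0.735). In all of these promoters other than the first, the long probes never rose well above background in the MeDIP channel, and neither did the short probes on chromosome 1, 1 of 2 on chromosome 17 and 2 of 4 in the first. Their levels and their order are therefore limited by background. The 3 promoters with the smallest group difference in the ratio, chr13:24006377-24008160, chr11:23564652-23567042 and chr6:14704805-14706530, had input differences of 0.11, -0.04 and -0.09. Their MeDIP differences equal these by the choice of a ratio difference near 0, and none was called in either channel.

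At the limits of the rule, regions on both sides had the same signs. The 134 mixed promoters whose mean probe length was within 1 base below the limit of 55 had a median LC minus CC difference of long minus short of -0.25 in the input and 0.23 in the ratio, and 46 regions within 1 base above it had -0.20 and 0.19. The 196 mixed promoters of exactly 6 probes had -0.35 and 0.36, and 70 regions of fewer probes had -0.29 and 0.32. The 21 mixed promoters of 17 to 19 probes had -0.36 and 0.41, and 14 regions of more than 19 probes had -0.29 and 0.28.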

How the data were processed

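Intensity values per probe and dye and their log10 ratio were deposited by the authors as output of Agilent Feature Extraction 11.0.1.1, with background subtraction and 1 linear factor per dye. The authors' own processed values, on a log2 scale, were deposited as a table and served as an alternative. The methods text does not name the normalization. The deposited log10 ratio gave the direction: its correlation across probes with log2 of processed Cy5 over Cy3 was 0.9992 to 0.9998. Cy5 was MeDIP DNA on all 6 arrays, without dye swap.

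Control features and 362 outlier probes (75 in mixed promoters) were left out. The main values were log2 processed signals and their log2 ratio, centered on each array's median, without loess or quantile normalization. Means of short probes, long probes, long minus short and all probes per region were fitted as LC minus CC with lmFit and eBayes of limma 3.58.1 under R 4.3.3 (3 against 3, Benjamini-Hochberg over all regions fitted, threshold 0.05). Tables were made with Python 3.11.15 and pandas 2.3.3. Replicates were separate mice, and the study placed only a single female pup of a litter in any group. On simulated data, 17 of 50 regions shifted by 0.5 in the long minus short ratio were recovered, 42 of 50 at 1, and all 50 at 1.5 and at 2, with 7 false calls among 4057 regions. The simulated noise was independent between regions, and a small part of them was shifted, in both directions. In the data the difference was positive in 94.3% of the mixed promoters, and all regions share the same 6 arrays. Recovery and false calls in the data can therefore differ from these.

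Named regions were, outside chromosome 18, the 5 largest in each direction that were called in the ratio of long minus short and did not overlap, the 3 highest and 3 lowest in CC and the 3 with the smallest difference. The rule, the members and all tests were chosen with earlier results of these data known. Same-numbered replicates share the scan day. Their deviations from the group means correlated at 0.12 to 0.24 in the input, 0.07 to 0.26 in the ratio and -0.09 to 0.29 in the MeDIP channel. The correlation was above 0.1 in every pair in the input only. The main fits were nevertheless unpaired in every channel, the input included, and pairs entered the fits only as the replicate block. The alternatives were normexp (offset 50), loess, quantile normalization, equal spread, the authors' values, probes well above background, the replicate and slide as blocks, the median over probes, the methods' t-test, limma with trend and robust variance, the probe length trend removed, start gaps up to 1000 bp, at least 3 probes of each class, long probes from 55 bases, and each array left out. Probes above background in both channels and the removal of an input brightness trend were added after the data were seen. Gene names and sequences on mm9, the marker genes of adipose cell types and the MAPK genes were not analysed here, so that the tissue label was not checked.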

Additional observations from a re-analysis of the deposited data

How the results depend on the processing

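Counts here are mixed promoters called by limma in either direction, and differences are medians over regions of LC minus CC on the log2 scale. The share over all regions fitted was not taken under the other settings, so that their counts do not set the mixed promoters apart. The cause of a change was not tested, except where the construction of the setting gives it. For long minus short, the counts were 1561 in the ratio, 1854 in the input and 1 in the MeDIP channel. They were 536 for the region mean, 1258 for the short probes and 0 for the long probes.

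With normexp, long minus short gave 387 in the ratio, 570 in the input (157 lower, 413 higher, so that the direction turned) and 0 in the MeDIP channel (0 lower, 1349 higher with an unadjusted p under 0.05). The region mean gave 995 and the long probes 465. The differences in the ratio were -0.018 for short probes, 0.088 for long probes and 0.12 for long minus short. In the input they were 0.083, 0.16 and 0.069, the last 2 turned in sign, and in the MeDIP channel 0.17 for long probes, also turned, and 0.20 for long minus short. With loess, long minus short in the ratio gave 433 and the region mean 246 (140 lower, 106 higher, turned), with differences of -0.058, 0.10 and 0.15. With quantile normalization, long minus short gave 546 in the ratio, 491 in the input and 0 in the MeDIP channel (58 lower and 306 higher unadjusted), and the region mean 160. The difference was 0.18 for long probes in the ratio, and in the input 0.056, -0.12 and -0.18. With equal spread on every array, the counts were 357 in the ratio, 501 in the input and 130 for the region mean (76 lower, 54 higher, turned). The differences were 0.15 for long probes and 0.23 for long minus short in the ratio, and 0.067, -0.12 and -0.18 in the input. With the authors' values, long minus short gave 497, the region mean 518 (268 lower, 250 higher, turned) and the long probes 221, with differences of -0.017, 0.031 and 0.050.

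Among probes well above background in the input, where 1834 regions could be compared, long minus short gave 936 in the ratio, 1023 in the input and 0 in the MeDIP channel (38 lower and 106 higher unadjusted), and the long probes 735. Above background in both channels (420 regions), it gave 168, 118 and 0 (5 lower and 51 higher unadjusted), the region mean 889 (687 lower, 202 higher, turned) and the long probes 90. The differences were 0.16 for long probes and 0.25 for long minus short in the ratio, -0.081 and -0.19 in the input, and 0.047 for long probes in the MeDIP channel, turned in sign. With the brightness trend removed, long minus short gave 608, 590 and 0 (84 lower and 218 higher unadjusted) and the region mean 363 (190 lower, 173 higher, turned). The differences were 0.13 and 0.21 in the ratio and 0.083, -0.12 and -0.20 in the input. With the length trend removed, long minus short gave 22 in the ratio (14 lower, 8 higher, turned), 0 in the input (509 lower and 324 higher unadjusted) and 18 in the MeDIP channel. The region mean gave 114 (83 lower, 31 higher, turned) and the short probes 967 (371 lower, 596 higher, turned). The differences were 0.043, -0.026 and -0.067 in the ratio, all turned in sign, and 0.018, -0.0085 and -0.026 in the input.

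With the replicate block, that is, with same-numbered arrays as pairs, long minus short in the MeDIP channel gave 15 (3 lower, 12 higher, turned) and the region mean 0 (231 lower and 992 higher unadjusted). It changed no other direction and moved no other count by over 1.5 times. With the slide as a block, the counts were 547 in the ratio, 623 in the input and 64 in the MeDIP channel (4 lower, 60 higher, turned), 0 for the region mean (137 lower and 586 higher unadjusted) and 12 for the long probes. The arrays of replicate 3 lay alone on their slides and carry no group comparison in that fit. Its counts rest on the arrays of replicates 1 and 2 only. The median over probes gave 1014, 1189 and 0 (94 lower and 165 higher unadjusted), 285 for the region mean and 805 for the short probes, with a difference of 0.092 for the short probes in the input. After Benjamini-Hochberg adjustment, the methods' t-test gave 0 in the ratio, 665 in the input, and 0 in the MeDIP channel, the region mean and the short probes. Unadjusted, at a p under 0.05, it gave 1575 in the ratio, 1811 in the input, 171 in the MeDIP channel (80 lower, 91 higher, turned), 944 for the region mean, 1301 for the short probes and 1336 for the long probes.

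With at least 3 probes of each class, which leaves 849 regions, the counts were 448, 518 and 0 (5 lower and 34 higher unadjusted), 101 for the region mean and 326 for the short probes. With long probes from 55 bases, which gives 5606 regions, they were 2538 in the ratio, 2924 in the input, 1908 for the short probes and 910 for the long probes. Start gaps of up to 1000 bp and limma with trend and robust variance kept every count within 1.5 times.

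With each array left out in turn, long minus short gave 0 to 1828 in the ratio, 696 to 1789 in the input and 0 to 20 in the MeDIP channel. The MeDIP count was 0 without LC replicate 1 (163 lower and 56 higher unadjusted), 18 without LC replicate 3, 6 without CC replicate 1, 2 without CC replicate 2 and 20 without CC replicate 3. The region mean gave 0 to 676, the short probes 549 to 1373 and the long probes 0 to 1022, with 1 call without LC replicate 3. The differences ranged from -0.12 to -0.09, 0.21 to 0.30 and 0.30 to 0.42 in the ratio for short probes, long probes and long minus short, from 0.11 to 0.14, -0.26 to -0.20 and -0.38 to -0.31 in the input, and from -0.03 to -0.01, -0.03 to 0.02 and -0.02 to 0.05 in the MeDIP channel, where the last 2 changed sign. The main counts rest on 3 arrays a group, and those with an array left out on 2 against 3. In the MeDIP channel, 66.9% of the long probes never rose well above background, which limits what that channel can show.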
